A study of Mus musculus with 22 samples.

Results

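The genes described here are 10 members of the purinergic system of the mouse: the P2Y receptors P2ry1, P2ry6, P2ry12 and P2ry14, the P2X receptors P2rx4 and P2rx7, the adenosine receptors Adora1 and Adora2a, and the ectonucleotidases Entpd1 and Nt5e. They were found by gene symbol, and all 10 were among the 17306 genes of the table. All 10 also passed the filter on low values, which left 16765 genes for testing. RNA was sequenced from the lumbar spinal cord (L4-L6) of 22 wildtype C57BL6J mice, 12-14 weeks old at collection. Every mouse, controls included, had received 1 mg of sodium iodoacetate (MIA) in the knee joint, a model of osteoarthritis pain, and tissue was taken on day 30. SAFit2, an inhibitor of the stress-regulated co-chaperone FKBP51, was given at 100 mg/kg in a vesicular phospholipid gel (VPG), and controls received the gel alone. The Early SAFit2 (5 mice) and Early Vehicle (6 mice) groups were injected around joint injury, on day -3 and day 4 (a treatment label gives day 3 for the first), and the Late SAFit2 (5 mice) and Late Vehicle (6 mice) groups on days 20 and 27. By the study's account the gel released SAFit2 for a limited time. At collection only Late SAFit2 mice were in the active phase of the drug, and Early SAFit2 mice were past it. The labels also carry the words Early and Late as the name of a batch, so dosing time and batch cannot be told apart, and the 5 mice of Early SAFit2 have SAFit1 in their titles but SAFit2 as their treatment label. No group without MIA was analysed here. The methods describe RNA from quadrants of the lumbar cord, on the side of the injected knee, and tissue rather than sorted cells was sequenced, so fewer cells of a type and less RNA per cell cannot be told apart.

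ATP and other nucleotides are released by injured and active cells and are sensed by P2X receptors, which are ATP-gated cation channels, and by P2Y receptors, which couple to G proteins. The ectonucleotidases on the cell surface then strip phosphates from ATP until adenosine is left, which acts on its own receptors. In the dorsal horn, ATP acting on microglia is known to promote pain signalling, whereas adenosine acting on the A1 receptor is known to dampen it.

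The results below turn on P2ry1 and P2ry12. Both lie on chromosome 3 (GRCm38, the assembly also called mm10), P2ry1 at chr3:61002795-61008982 on the plus strand and P2ry12 at chr3:59216272-59262871 on the minus strand. Their promoter windows from RefSeq (GRCm38.p6), 250 bases before to 50 bases after the start, are chr3:61002535-61002834 and chr3:59262936-59263235. They are shown because SAFit2 acts on a partner of the glucocorticoid receptor, and capitals mark the half-site of a glucocorticoid response element (AGAACA, read here on the opposite strand as TGTTCT).
P2ry1: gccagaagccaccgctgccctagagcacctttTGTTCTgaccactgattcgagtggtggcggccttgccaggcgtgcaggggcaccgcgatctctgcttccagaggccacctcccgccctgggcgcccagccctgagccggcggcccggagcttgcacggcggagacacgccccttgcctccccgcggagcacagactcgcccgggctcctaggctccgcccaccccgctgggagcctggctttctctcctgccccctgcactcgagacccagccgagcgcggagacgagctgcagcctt
P2ry12: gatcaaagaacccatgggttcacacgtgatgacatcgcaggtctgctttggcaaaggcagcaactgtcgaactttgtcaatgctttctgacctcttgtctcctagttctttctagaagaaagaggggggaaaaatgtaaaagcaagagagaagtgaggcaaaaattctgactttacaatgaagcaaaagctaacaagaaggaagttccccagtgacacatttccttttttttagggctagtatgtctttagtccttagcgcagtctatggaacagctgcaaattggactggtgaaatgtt
The half-site was found once in the P2ry1 window, at position 33 of the 300 bases, and was not found in the P2ry12 window. Of all 32851 mouse promoter windows of that length, 19% held it on either strand. The P2ry1 window was rich in G and C (70.7%, with 25 CpG pairs), while the P2ry12 window was not (42.3%, with 4 CpG pairs). RefSeq windows were found for 8 of the 10 genes, 14 windows in all, of which 2 held the half-site. None held the whole response element, which was in 0.00913% of all windows. The motif of the microglial factor Spi1 (GAGGAAGT, searched on both strands) was in 1 of the 14 windows, one of the P2rx7 windows, against 3.2% of all windows.

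The other genes lie, in GRCm38, at chr3:59113855-59153618 (P2ry14, minus strand), chr7:100937630-100974649 (P2ry6, minus), chr5:122707544-122729738 (P2rx4, plus), chr5:122643911-122691432 (P2rx7, plus), chr1:134199223-134235431 (Adora1, minus), chr10:75316877-75334784 (Adora2a, plus), chr19:40612366-40741602 (Entpd1, plus) and chr9:88327197-88372092 (Nt5e, plus). All 10 are protein-coding, and the P2X receptor genes are neighbours on chromosome 5. On the opposite strand, Adora1 overlaps Mybph by 2010 bases, P2ry1 overlaps the antisense gene Gm37035 by 992 bases and P2ry6 overlaps Gm44545 by 746 bases, and whether counting used strand is not given in the sources used here.

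The libraries held between 11352989 and 24433349 reads on genes. The dependence of expression on transcript GC content varied between libraries, within groups as well as between them. The slope of log2 CPM (CPM, the reads of a gene scaled to library size) per 10 percentage points of GC averaged 0.17 ± 0.33 (SD, n = 6) in Late Vehicle and -0.30 ± 0.16 (SD, n = 5) in Late SAFit2, and 0.02 ± 0.17 and 0.07 ± 0.17 in Early Vehicle and Early SAFit2. In 4 libraries, replicates 4 and 5 of Early Vehicle and replicates 4 and 5 of Late SAFit2, the 10 most abundant genes took over 20% of the reads. Several results are also given without these 4 libraries, though not every result that rests on them. Late Vehicle 6, at 19.8%, was just under that limit and was kept in those fits.

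Compared per kilobase of their longest transcript, the 10 genes spanned a wide range of levels. Adora1, the inhibitory adenosine A1 receptor, was the most abundant at 37.5 ± 3.6 CPM per kb (SD, n = 22), and it was above P2ry12 in 22 of 22 mice. P2ry12, the ADP receptor by which resting microglia sense injury, followed at 13 ± 4.46 CPM per kb and was in turn above P2ry1 in every one of the 22 mice. P2ry1, an ADP receptor that raises intracellular calcium, averaged 5.15 ± 0.988 CPM per kb. These leading genes kept their order in each mouse. P2rx4 (3.39 ± 0.693), P2rx7 (3.02 ± 0.678) and Entpd1 (2.77 ± 0.455 CPM per kb) could not be ordered, since P2rx4 was above P2rx7 in 14 and P2rx7 above Entpd1 in 12 of the 22 mice. Nt5e stood below them at 1.39 ± 0.384 CPM per kb. The lowest levels per kb belonged to P2ry6 (0.678 ± 0.301), Adora2a (0.581 ± 0.288) and P2ry14 (0.34 ± 0.148). P2ry6 and Adora2a were not separated either, with P2ry6 the higher in 15 of 22 mice. Low levels meant few reads: the median library held 24.5 reads of P2ry6, 30.5 of Adora2a and 43 of P2ry14, against 353.5 of P2ry1, 484 of P2ry12 and 3504.5 of Adora1. The first 3 of these genes carry the most counting error.

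**Figure D1:**
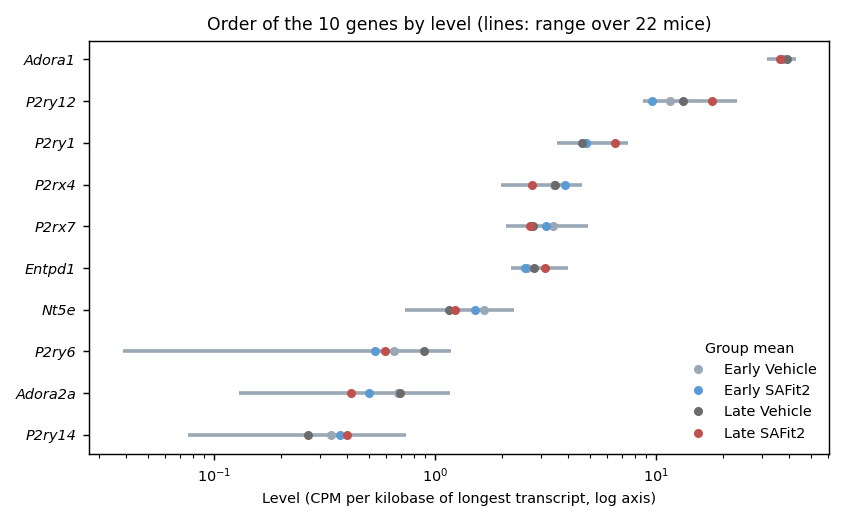
Level of each of the 10 genes in CPM per kilobase of longest transcript (log axis), with the range over 22 mice as a line and the 4 group means as points. Adora1 stood highest at a mean of 37.5 and P2ry14 lowest at 0.34, and the ranges of P2rx4, P2rx7 and Entpd1 overlapped.

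After late dosing, P2ry1 was the 1 gene of the 10 that passed the test (adjusted p under 0.05 and at least 1.2-fold, limma with Benjamini-Hochberg adjustment over 16765 genes). In that comparison 12.1% of all genes tested passed, so 1 of 10 was near the background. The study had already listed P2ry1 among genes regulated by late SAFit2 in these same data. Its test values here and below are therefore not independent of that earlier result. On the log2 scale, 5 of the 10 fold changes were above 0 and 5 below, and the median was -0.003, where the whole table had -0.048. Their median absolute log2 fold change was 0.28 in the late comparison, against 0.31 over all genes. After early dosing none of the 10 passed, as none did among all genes (0%), and the median absolute log2 fold change was 0.09 against 0.13 over all genes. At an unadjusted p under 0.05, 3 of the 10 were reached late, where 34.5% of all genes were, and 0 of the 10 early, where 2.48% of all genes were.

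**Figure D2:**
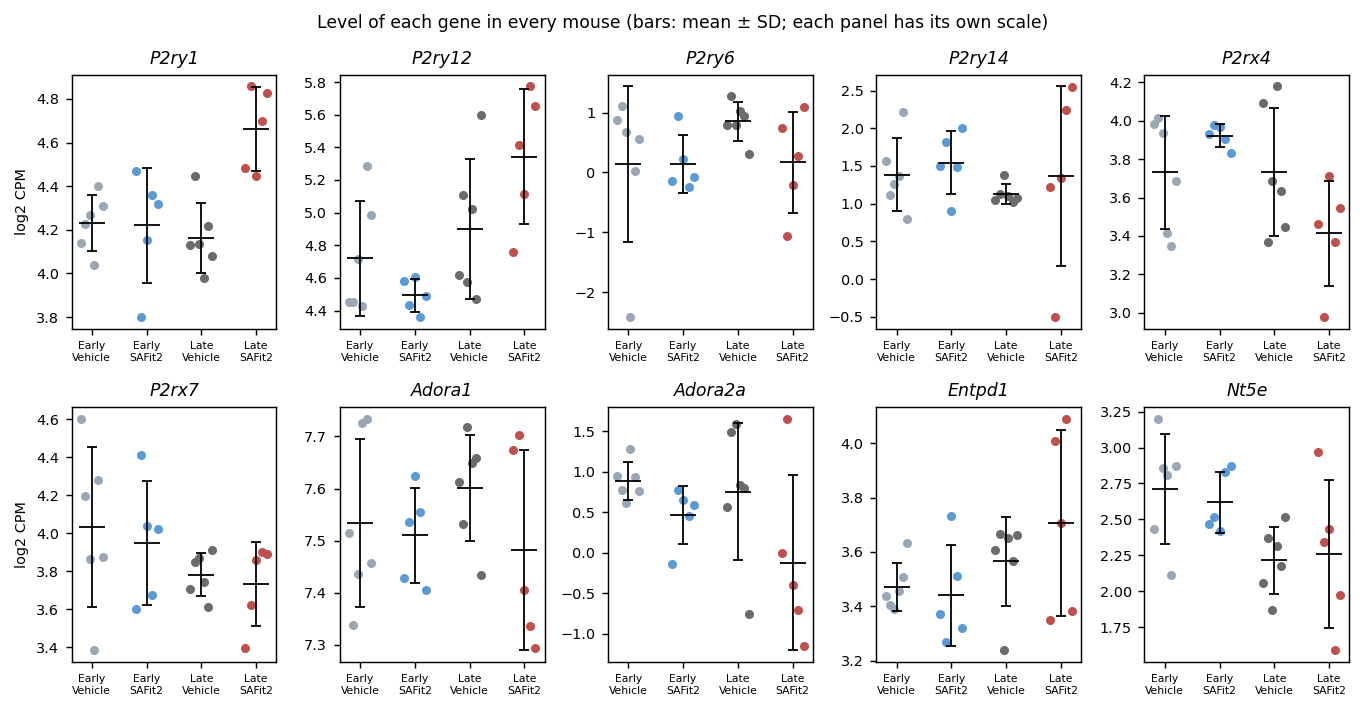
Log2 CPM of each gene in every mouse of the 4 groups, with mean and SD. P2ry1 sat between 4.45 and 4.86 in Late SAFit2 and between 3.98 and 4.45 in Late Vehicle, while most other genes overlapped widely between groups.

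P2ry1, which encodes the P2Y1 receptor, was at 4.48, 4.86, 4.45, 4.70 and 4.83 log2 CPM in the 5 Late SAFit2 mice. In the 6 Late Vehicle mice it ranged from 3.98 to 4.45 with a median of 4.13. Of the Late SAFit2 mice, 4 of 5 were above the highest vehicle mouse and the remaining one was level with it to 2 decimals, so the groups overlapped at that point. Groups did not overlap for 1.71% of all genes in this comparison. The log2 fold change of P2ry1 was 0.50 (SE 0.13, 95% interval 0.23 to 0.77, adjusted p = 0.0329 by limma), or 1.41-fold, and a two-sided exact permutation test over all splits of the 11 mice gave p = 0.0065, where the smallest possible p is 0.0022. The P2ry1 call was not stable: it was lost when the late groups were fitted without the early ones (adjusted p = 0.0687 by limma, when 0 genes passed in all) and without the 4 libraries named above (log2 fold change 0.43, adjusted p = 0.142, when 9 genes passed in all). It was also lost on leaving out any of 7 of the 11 late mice (Late Vehicle 1, 3, 4 and 5, and Late SAFit2 2, 4 and 5), while the log2 fold change over all 22 fits that left out 1 mouse was 0.45 to 0.56. In each of those 7 fits 1 gene passed in all, or 8 without Late SAFit2 4, against 2021 in the main fit. Early, the P2ry1 values of 4.47, 3.80, 4.15, 4.36 and 4.32 log2 CPM under SAFit2 lay around those of Early Vehicle, which ran from 4.04 to 4.40 with a median of 4.25. The early log2 fold change was -0.01 (SE 0.13, 95% interval -0.28 to 0.26), and the difference between the early and the late effect, -0.51 (SE 0.18), had an adjusted p of 0.123 in limma and an exact permutation p of 0.0168. That permutation p is unadjusted, and treatment was shuffled within each dosing time, so it does not test the difference alone. No gene passed the adjusted test of that difference (0%), and 24.9% of all genes had an unadjusted p under 0.05, as had 3 of the 10 members. Averaged over both dosing times, P2ry1 had a log2 fold change of 0.24 (SE 0.09, adjusted p = 0.339 by limma, exact permutation p = 0.0228), and 0.21 without the 4 libraries (adjusted p = 0.339 by limma), short of the unadjusted threshold of 0.05.

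P2ry12, a defining gene of homeostatic microglia, was at 4.76, 5.41, 5.12, 5.78 and 5.66 log2 CPM in Late SAFit2. Late Vehicle ranged from 4.47 to 5.60 with a median of 4.82. The 2 highest SAFit2 values, of replicates 4 and 5, lay above every vehicle value and the others lay within the vehicle range. Both came from libraries with over 20% of reads on 10 genes. The log2 fold change of 0.44 (SE 0.20, 95% interval 0.04 to 0.85) had an unadjusted p of 0.0318 and an adjusted p of 0.11 in limma, and the exact permutation test gave p = 0.113. P2ry12 passed when Late Vehicle 6 (0.58, adjusted p = 0.0196 by limma) or Late SAFit2 1 (0.59, adjusted p = 0.0361 by limma) was left out. Of the 16765 genes, 4971 and 3537 passed in those fits, against 2021 in the main fit. Over all 22 fits that left out 1 mouse, the late log2 fold change of P2ry12 was 0.34 to 0.59, with adjusted p-values of 0.0196 to 0.275 by limma. Early SAFit2 values of P2ry12 were close together, at 4.58, 4.44, 4.61, 4.36 and 4.49 log2 CPM, below the Early Vehicle mean of 4.72 ± 0.35 (SD, n = 6) in 5 of 5 mice but mostly inside that group's range. The early log2 fold change was -0.23 (SE 0.20) and the early minus late difference -0.67 (SE 0.28, adjusted p = 0.145 by limma, exact permutation p = 0.0386), which passed without Late Vehicle 6 (-0.81, adjusted p = 0.0356 by limma). Without that mouse 2513 of the 16765 genes passed for this difference, against 0 in the main fit. Over all fits that left out 1 mouse, that difference was -0.82 to -0.56, with adjusted p-values of 0.0356 to 0.257 by limma. P2ry12 and P2ry14 both lie within Med12l, a gene on the opposite strand. Med12l itself had a late log2 fold change of 0.06 (SE 0.18, adjusted p = 0.839 by limma).

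P2ry6, the UDP receptor linked to microglial phagocytosis, and P2ry14, the UDP-glucose receptor, were both too sparse for a firm statement. P2ry6 was at 0.73, -1.05, -0.21, 0.28 and 1.09 log2 CPM in Late SAFit2, from as few as 5 reads, and between 0.30 and 1.27 in Late Vehicle. Its late log2 fold change was -0.68 (SE 0.48, adjusted p = 0.317 by limma). In the early comparison it was 0.00 (SE 0.48), and the 95% interval of -0.99 to 0.99 leaves room for a change of either sign. That value rested on Early Vehicle 4, with 1 read: without it the early value was -0.51, and without the 4 libraries -0.66, with adjusted p-values of 0.999 and 1 by limma. P2ry14 was at 1.22, -0.51, 1.34, 2.24 and 2.55 log2 CPM in Late SAFit2, a spread (SD 1.19) far above that of Late Vehicle (SD 0.13). Markers of mural and meningeal cells also spread widely, summing to 63.9-429 CPM in Late SAFit2 and 109-182 CPM in Late Vehicle. Their part in the P2ry14 values was not tested. The log2 fold change of P2ry14 was 0.24 (SE 0.37) late and 0.15 (SE 0.37) early. Without the 4 libraries named above, the late value of P2ry14 was -0.44 (adjusted p = 0.422 by limma), so its sign rested on 2 SAFit2 mice. For the mean of both times, P2ry6 reached an unadjusted p under 0.05 without Early Vehicle 4 (-0.60, adjusted p = 0.334 by limma), without the 4 libraries (-0.85, adjusted p = 0.231 by limma), and with library quality weights (-0.83, adjusted p = 0.0164 by limma), and P2ry14 did so without Late SAFit2 2 (0.43, adjusted p = 0.43 by limma). With those weights 6396 of the 16765 genes reached that threshold, against 2215 in the main fit.

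Neither of the P2X receptors passed the test at either dosing time. P2rx4, an ATP-gated channel that microglia are known to raise after nerve injury, was at 3.46, 2.98, 3.71, 3.37 and 3.55 log2 CPM in Late SAFit2 and from 3.37 to 4.18 in Late Vehicle, with a median of 3.66. None of the SAFit2 mice exceeded the vehicle mean. Its late log2 fold change was -0.32 (SE 0.17, adjusted p = 0.18 by limma), its early one 0.19 (SE 0.17), and the difference between them 0.51 (SE 0.24, adjusted p = 0.188 by limma, exact permutation p = 0.0354). P2rx7, a channel opened by high ATP that drives release of interleukin-1 beta, lay between 3.40 and 3.90 log2 CPM in Late SAFit2 and between 3.61 and 3.91 in Late Vehicle. Its log2 fold changes of -0.05 late (95% interval -0.42 to 0.32) and -0.09 early (95% interval -0.45 to 0.28) left room only for changes within those limits at the 95% level.

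Adora1 was the most precisely measured gene of the 10. Its Late SAFit2 values were 7.67, 7.70, 7.41, 7.34 and 7.29 log2 CPM, split into 2 mice at the upper end of the Late Vehicle range (7.43 to 7.72) and 3 mice below it. The late log2 fold change was -0.12 (SE 0.10, 95% interval -0.32 to 0.08) and the early one -0.02 (SE 0.10, 95% interval -0.22 to 0.17). Without the 4 libraries named above, which include 2 of those 3 low mice, the late Adora1 value was -0.01. Adora2a, the adenosine receptor that stimulates cyclic AMP formation, had log2 fold changes below 0 at both times and passed the adjusted test at neither. It was at 0.00, 1.65, -0.40, -0.71 and -1.15 log2 CPM in Late SAFit2, where the lowest value stands for 3 reads, and between -0.76 and 1.59 in Late Vehicle. The highest and the lowest of these 11 mice were both SAFit2 mice. The late log2 fold change was -0.88 (SE 0.42, adjusted p = 0.137 by limma, exact permutation p = 0.158), and the unadjusted limma p was under 0.05. Without Late Vehicle 6, the one vehicle mouse below 0, it was -1.18 (adjusted p = 0.0255 by limma, when 4971 genes passed in all). Over all 22 fits that left out 1 mouse, the late value was -1.32 to -0.62, with adjusted p-values of 0.0255 to 0.33 by limma. The Late SAFit2 values of -0.71 and -1.15 log2 CPM came from 2 of the 4 libraries named above. Early SAFit2 values were -0.14, 0.77, 0.65, 0.46 and 0.59 log2 CPM, against 0.61 to 1.29 in Early Vehicle. The early log2 fold change was -0.42 (SE 0.42, p = 0.321 by limma with its shared spread), while the exact permutation test on the 11 early mice alone gave p = 0.0195, 1 of 40 such tests on the 10 genes. Averaged over both times, Adora2a had a log2 fold change of -0.65 (SE 0.30, p = 0.037, adjusted p = 0.357 by limma, exact permutation p = 0.0442). It and P2ry1 were the 2 of 10 genes past an unadjusted p of 0.05 for that average, where 13.2% of all genes were and 0% passed with adjustment. Without the 4 libraries the average for Adora2a was -0.32 (adjusted p = 0.595 by limma), and it fell short of that unadjusted threshold without any of Early Vehicle 4, Early SAFit2 1, Late Vehicle 2 and 3, and Late SAFit2 3, 4 and 5, at -0.61 to -0.52.

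The ectonucleotidases did not pass the test at either time. Entpd1 (CD39), which takes ATP and ADP down to AMP, was at 3.35, 4.01, 3.71, 4.09 and 3.38 log2 CPM in Late SAFit2. In Late Vehicle it was between 3.24 and 3.67, so 3 SAFit2 mice were above all vehicle mice and the other 2 were within their range. Its log2 fold change was 0.14 (SE 0.15) late and -0.03 (SE 0.15) early. Nt5e (CD73), which turns AMP into adenosine, was at 2.97, 2.34, 2.43, 1.59 and 1.97 log2 CPM in Late SAFit2 and between 1.87 and 2.51 in Late Vehicle. Its log2 fold change was 0.04 (SE 0.23, 95% interval -0.42 to 0.51) late and -0.09 (SE 0.23, 95% interval -0.56 to 0.37) early.

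**Figure D3:**
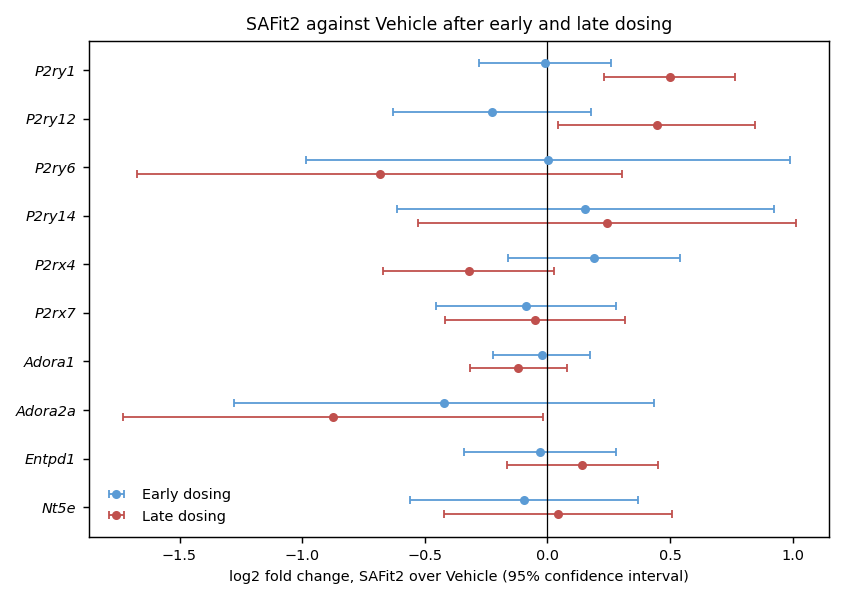
Log2 fold change of SAFit2 over Vehicle with its 95% interval for each gene, after early and after late dosing. The late interval of P2ry1 (0.23 to 0.77) lay furthest from 0, and those of P2ry12 and Adora2a came within 0.05 of it.

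Late fold changes varied with the GC content of transcripts. Across all genes, the median late log2 fold change went from 0.43 for transcripts with 38 to 40% GC to -0.54 for those with 58 to 60%. Early, the same medians went from -0.05 to 0.08. P2ry12 (38.6% GC) and P2ry14 (39.4%) were among the members with late values above 0, and P2ry6 (55.9%) and Adora2a (59.2%) had the lowest. Against the genes in the same GC class, 2 percentage points wide, 4 of the 10 late values (P2ry12, P2rx7, Entpd1 and Nt5e) lay within the middle 50%. P2ry12 was almost at the median of its class, P2ry1 (44.5% GC) was 0.31 above it, and P2rx4 (48.3%), Adora2a and P2ry6 differed from theirs by -0.33, -0.34 and -0.37. With each library corrected for GC content and transcript length, the late log2 fold change of P2ry12 was 0.03 and that of Adora2a -0.33. The P2ry1 value was 0.34 after that correction (adjusted p = 0.16 by limma) and was not called, as 0 of the 16213 genes with a GC value were. P2rx4 kept -0.30 (adjusted p = 0.342 by limma). Over the 22 libraries, the GC slope of a library correlated with log2 CPM at r = -0.77 for P2ry12, -0.72 for P2ry1 and 0.63 for P2rx4, as a description of libraries that share their groups.

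**Figure D4:**
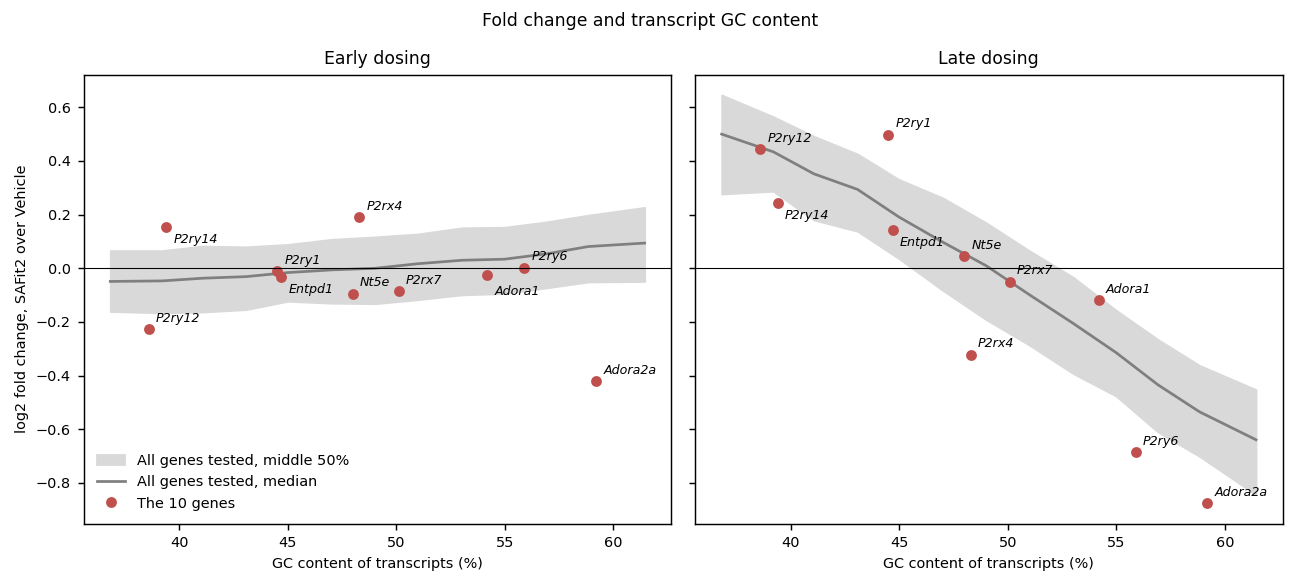
Log2 fold change of SAFit2 over Vehicle against transcript GC content, early and late, for the 10 genes (points) and all genes tested (line, median; band, middle 50%). The late medians fell from 0.43 at 38 to 40% GC to -0.54 at 58 to 60%, and the late points of P2ry12, P2rx7, Entpd1 and Nt5e lay within the band.

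The same treatment was also compared between the dosing times, which the batch label accompanies. Between Late Vehicle and Early Vehicle none of the 10 genes passed the test, against 9.11% of all genes, and 1 of the 10 had an unadjusted p under 0.05, against 24.3%. That gene was Nt5e, at 2.22 ± 0.23 log2 CPM (SD, n = 6) in Late Vehicle and 2.71 ± 0.38 (SD, n = 6) in Early Vehicle, with a log2 fold change of -0.50 (SE 0.22, adjusted p = 0.151 by limma), and it passed without the 4 libraries (-0.62, adjusted p = 0.0441 by limma). After GC and length correction P2ry12 was called in that comparison (0.44, adjusted p = 0.00901 by limma), where it was 0.18 (SE 0.19) before. With that correction 3013 of 16213 genes were called between the vehicle groups, against 1527 of 16765 in the main fit. Between Late SAFit2 and Early SAFit2, 3 of the 10 passed, against 20.5% of all genes. P2ry12 rose by a log2 fold change of 0.85 (SE 0.20, adjusted p = 0.0059 by limma) and was higher in each late mouse (4.76 and above) than in any early mouse (4.61 and below), and these groups did not overlap for 14.5% of all genes. P2ry1 rose by 0.44 (SE 0.14, adjusted p = 0.0237 by limma) and P2rx4 fell by 0.51 (SE 0.18, adjusted p = 0.0438 by limma). The P2rx4 call was lost with GC and length correction (adjusted p = 0.0609 by limma), with median centring (0.102), with quantile normalization (0.142) and with voom on the reads (0.0602). After GC and length correction P2ry12 (0.61, adjusted p = 0.00148 by limma) and P2ry1 (0.38, adjusted p = 0.022) still passed, and Adora1, at -0.03 before, passed at 0.36 (adjusted p = 0.0347). In that corrected fit 3464 of 16213 genes were called between the SAFit2 groups. All 3 calls were lost without the 4 libraries named above, with adjusted p-values of 0.0545, 0.102 and 0.0599 by limma for P2ry12, P2ry1 and P2rx4. That fit leaves out replicates 4 and 5 of Late SAFit2 and no Early SAFit2 mouse, so it also rests on fewer mice. On leaving out 1 mouse, the P2ry1 call was lost without Early SAFit2 2 or 3 or Late SAFit2 2 or 5, and the P2rx4 call without any Early SAFit2 mouse, Late SAFit2 1, 2, 4 or 5 or Early Vehicle 6, with P2rx4 values of -0.54 to -0.40. This comparison shares its Late SAFit2 mice with the late comparison above.

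Microglial markers were compared between the same groups. All 12 genes of a marker list that held none of the 10 were measured, with none at 0 reads in any library. Between Late SAFit2 and Late Vehicle, 0 of the 12 were called, against 12.1% of all genes, 4 were above 0 and 8 below, and their summed level ranged over 395-473 CPM and 419-470 CPM. Individual markers pointed in different directions: Siglech, a sialic acid-binding lectin, had a late log2 fold change of 0.57 (SE 0.22) and C1qb, a complement subunit, -0.70 (SE 0.25). Between Late SAFit2 and Early SAFit2, 4 of the 12 were called, against 20.5% of all genes, and all 4 were higher late (Cx3cr1, Itgam and Siglech among them), and the summed level of 395-473 CPM stood above the 328-359 CPM of Early SAFit2. The summed level was likewise 345-413 CPM in Early Vehicle, below Late Vehicle. Early, 1 of the 12 markers was above 0 and 11 were below (median -0.18), with 0 called, and for the mean of both times 2 had an unadjusted p under 0.05, with values below 0 (C1qa and C1qb). Other lists differed between the dosing times too. Astrocyte markers were above 0 in 7 of 7 in both comparisons of late with early mice, with 4 called among SAFit2 mice (median 0.49) and 3 among vehicle mice (median 0.38), and their summed level was 6280-7570 CPM in Late SAFit2 against 4500-5240 CPM in Early SAFit2. Of 3 ependymal markers, 2 were called among SAFit2 mice, both higher late. These were Ccdc153 and Tmem212, whose Early SAFit2 means of -2.62 and -2.96 log2 CPM were near the lowest value in the data (-3.15). The remaining and best expressed marker, Foxj1, was lower late, at a mean of 3.79 against 4.11 log2 CPM. The part of these markers in the P2ry12 result was not tested. Markers of neurons (8 of 8), dorsal horn neurons (5 of 5), astrocytes (7 of 7) and oligodendrocytes (7 of 7) had reads in every library, and 1 of 4 markers of sensory ganglion neurons was listed. The 3 skeletal muscle markers listed summed to 2-47.2 CPM in Late SAFit2 and 1.57-3.74 CPM in Late Vehicle. Across the 22 libraries the mean of the 12 markers correlated with P2ry12 at r = 0.21, and at -0.33 once group means were removed, and with P2ry6 at r = 0.46 and 0.43, as a description.

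Of the other genes of the pathway, 34 of 41 listed were in the table and tested, from Slc28a2, a nucleoside transporter, at a mean of -1.98 log2 CPM to Entpd4b, an intracellular diphosphohydrolase, at 7.35. After late dosing 3 of the 34 were called, 1 higher and 2 lower, against 12.1% of all genes. The median log2 fold change was -0.22, against -0.048 over all genes. Dpp4, a surface peptidase that anchors adenosine deaminase, rose by a log2 fold change of 1.28 (SE 0.40, adjusted p = 0.0426 by limma), from a Late Vehicle mean of 0.07 ± 0.57 log2 CPM to 1.35 ± 1.09. In Late Vehicle it had been lower than in Early Vehicle, by a log2 fold change of -1.44 (SE 0.38, adjusted p = 0.0166 by limma). Panx2, a pannexin, fell by 0.73 (SE 0.21, adjusted p = 0.0363 by limma) and Entpd4b fell by 0.40 (SE 0.13, adjusted p = 0.0439 by limma). These calls too were lost with GC and length correction and with the late groups fitted alone, where 0 genes passed. The other 4 P2X receptors measured all had late log2 fold changes below 0, with a median of -0.30, and early ones above 0, with a median of 0.25, and none was called. After early dosing none of the 34 passed, as none did among all genes. Of the 34, 22 were above 0, against 51.7% of all genes, and the median was 0.11, against 0.007. These lists were not compared with genes of the same GC class.

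**Figure D5:**
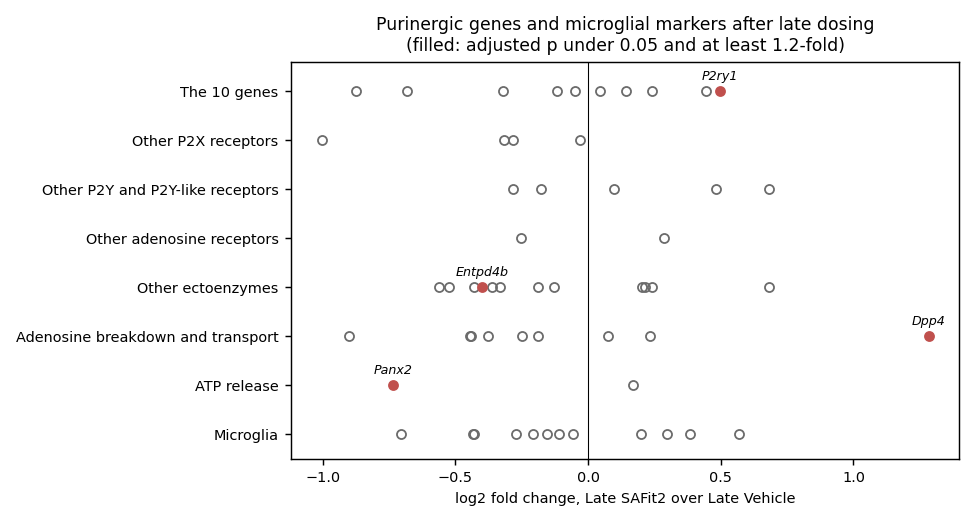
Late log2 fold change of SAFit2 over Vehicle for the 10 genes, the other purinergic genes by role and 12 microglial markers. Filled points passed the test: P2ry1 (0.50) and Dpp4 (1.28) above 0, Entpd4b (-0.40) and Panx2 (-0.73) below.

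Between the dosing times, 4 of the 34 were called among vehicle mice, against 9.11% of all genes. Alpl, the tissue-nonspecific alkaline phosphatase, was higher in Late Vehicle (1.02, SE 0.22, adjusted p = 0.0039 by limma), as were the nucleoside transporters Slc29a3 (0.49) and Slc29a4 (0.77), and Dpp4 was lower. Among SAFit2 mice 6 of the 34 were called, against 20.5% of all genes: Adk, the kinase that clears adenosine (0.52, SE 0.12), Enpp1, an ectoenzyme that splits ATP (0.81, SE 0.19), Gpr34, a microglial receptor related to P2ry12 (0.90, SE 0.26), Entpd5 (0.33) and Slc29a3 (0.49) were higher late, and Panx2 was lower (-0.73). For the mean over both dosing times, Gpr17, a receptor of maturing oligodendrocyte precursors (-0.26), Slc29a1, the main nucleoside transporter (-0.29), and Dpp4 (0.63) had an unadjusted p under 0.05, 3 of 34 against 13.2% of all genes, with adjusted p-values of 0.343, 0.363 and 0.356 by limma.

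The genes whose levels followed each member most closely over the 22 libraries were named by Pearson's r, as a description in which groups and libraries are shared. The lists depended on the group means: with these removed, 2 of the 3 named genes were kept for P2rx7, 0 for P2ry6 and Nt5e, and 1 for each of the other 7 members. P2ry12 was followed by Add3 (r = 0.94), Erbin (r = 0.93) and Gpr34 (r = 0.93). P2ry1 was followed by Cd164 (r = 0.87), Zfp870 (r = 0.87) and Abce1 (r = 0.85). P2ry6 went with Lypd1, Pik3ap1 and Gpnmb at r of 0.80, and P2ry14 with Ogn, Mgl2 and Sostdc1 at r between 0.82 and 0.84. For P2rx4 the leading genes were H2-Q6, Sirt6 and Plekha7 (r = 0.83) and for P2rx7 Hmcn2, Gldn and Col6a6 (r between 0.81 and 0.82). Adora1 was followed by Phactr1 (r = 0.88), Hspb6 and Septin4 (r = 0.81), and Adora2a by Tysnd1, Thoc6 and 9330020H09Rik (r between 0.79 and 0.80). The ectonucleotidases had looser partners, Enpp4, Rab31 and Enpp2 for Entpd1 (r between 0.74 and 0.76) and Tyw3, Usb1 and Sfmbt2 for Nt5e (r between 0.71 and 0.73). Among the 10 genes themselves the closest pairs were Adora1 with Adora2a (r = 0.67), P2ry12 with Entpd1 (r = 0.61) and P2ry1 with P2ry12 (r = 0.60), and P2ry12 with P2rx4 ran in opposite directions (r = -0.61).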

How the data were processed

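The table held log2 CPM of 17306 genes in 22 libraries, 1 per mouse, as deposited by the authors. Libraries were strand-specific, and the methods describe read counting per gene, TMM scaling and a limma analysis; the submitters' processing notes name Trimmomatic, HISAT2, edgeR and mm10, and versions are not given in the sources used here. The values led back to whole reads (100% within 0.02 reads), which gave the depth and the reads quoted. Nothing shows a further replicate level, so p-values measure the spread between mice.

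The 10 genes, the gene lists and the tests were chosen with earlier results of these data known. Genes with at least -1 log2 CPM in 5 libraries were tested with limma 3.58.1 (R 4.3.3, trended variance) on 4 group means, with Benjamini-Hochberg adjustment over 16765 genes, and called at an adjusted p under 0.05 and 1.2-fold (mean of both dosing times: unadjusted p under 0.05). Fold changes of low genes are understated on this scale. Two-sided exact permutation tests were run on each member, with treatment shuffled within dosing time and p-values left unadjusted. For the early minus late difference, they test for no SAFit2 effect at either time, not for equal effects. All 10 members are named, with the 3 genes of highest r for each, and pathway genes that were called or had the lowest or highest level. GC content and length came from GENCODE M21 transcripts (96.5% of genes). Same-numbered mice did not deviate together (r from -0.24 to 0.32, over 0.1 in 2 of 10 pairs), so numbers were not used as pairs. The procedure was tested on simulated data with known changes, drawn independently for each gene. That simulation held no GC differences between libraries, so it could not test their effect on the calls.

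Alternatives were other filters, offsets, scalings, variance models, GC and length correction, voom weights on the reads and leaving out each mouse. Fits without the 4 libraries with over 20% of reads on 10 genes, and on the genes with a GC value only, were added after the data were seen. No library was left out of the main comparisons.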

Additional observations from a re-analysis of the deposited data

Results flagged for a closer look

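A value far from the others of its group was found in 3 of the 40 combinations of gene and group, where chance alone gives about 1 in 20. P2ry6 stood at -2.42 log2 CPM in Early Vehicle replicate 4, from a single read (1), and the next lowest mouse was at 0.02. P2ry14 stood at 1.38 log2 CPM in Late Vehicle replicate 3, above a group otherwise between 1.02 and 1.13. Entpd1 stood at 3.24 log2 CPM in that same library, below a group otherwise between 3.57 and 3.67.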

How the results depend on the processing

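The number of the 10 genes called after late dosing was 1. It was 0 without the variance trend, with only the compared groups, with GC and length correction (alone and with the replicate block) and without the 4 libraries with over 20% of reads on 10 genes. It was 4 with library quality weights (P2ry1, P2ry12, P2rx4 and Adora2a) and 2 with the replicate block, and 0 to 3 on leaving out 1 mouse. Over all genes these late calls numbered 2021, of which 44.2% were higher. They numbered 62 without the variance trend, 876 with voom, 1231 after quantile normalization, 3157 with the block and 6381 with weights. On leaving out 1 mouse they numbered 1 to 4971. The share that was higher was 55.2% after median centring and 55.3% with voom. Early, the count was 0 in every fit run. For the mean of both times the count of 2 became 1 with the stricter filter, quantile normalization, GC and length correction or without the 4 libraries, 0 with that correction and the block, 3 with weights (P2ry6 added), and 1 to 3 on leaving out 1 mouse. For the early minus late difference it went from 0 to 2 with weights and to 0 to 1 on leaving out 1 mouse. Among all genes, 5082 passed for that difference with weights and 0 to 2513 on leaving out 1 mouse, against 0 in the main fit. Between vehicle groups the count of members went from 0 to 1 with weights (Nt5e), with GC and length correction with or without the block (P2ry12), and without the 4 libraries (Nt5e). Among all genes, 5067 were called there with weights and 3013 with GC and length correction alone, against 1527 in the main fit. Between SAFit2 groups the count of 3 became 0 without the 4 libraries, 2 with median centring, quantile normalization, voom or the block (P2rx4 lost), and 1 to 3 on leaving out 1 mouse; with GC and length correction it stayed 3, with Adora1 called and P2rx4 not. The cause of these shifts was not tested.

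Of 2258 refitted single-gene values, 3 changed sign where a p was under 0.05: P2ry6 early with weights (-0.73), and Adora1 between SAFit2 groups with GC and length correction (0.36) and with the block added (0.36). Another 51 values on leaving out 1 mouse and 61 under other settings changed sign within their error. Mouse numbers did not pair the samples, and the block changed no call other than those given and P2rx4 between SAFit2 groups (adjusted p = 0.0526 by limma). The low read numbers of P2ry6, Adora2a and P2ry14 limit what could be detected for them.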
